A study of Homo sapiens with 9 samples.

Results

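Sprouty genes (SPRY1, SPRY2, SPRY4), Sprouty-related genes (SPRED1, SPRED2, SPRED3), the PEA3 genes (ETV1, ETV4, ETV5) and PHLDA1 were followed through 28 days of osimertinib. These 10 genes were chosen by name out of 20442 genes in the deposited table, and for each gene the coding span with the highest mean value was kept. PC9 is an established human lung adenocarcinoma line that grows through a mutated receptor kinase, EGFR (the epidermal growth factor receptor), which osimertinib blocks. All cells carried the FUCCI4 cell-cycle reporter (the mKO2-CDT1 and Clover-GMNN markers), were glyoxal-fixed and made permeable with saponin, and sorting used DAPI and the reporter to part G1, S and G2. Day 0 cells were untreated and gave 2 G1 libraries (clones 1 and 7), 2 S libraries (clones 1 and 7) and 1 G2 library (clone 1). Day 28 cells had been kept in 500 nM osimertinib and gave 2 G1 libraries (clones 1 and 7), 1 S library (clone 1) and 1 G2 library (clone 1). Each clone is 1 reporter line. Whether its libraries were grown as separate cultures is not given. In tests within G1, within S or between phases of a day, the spread behind the p-values came from clone 7 against clone 1. Those gaps lay in day 0 G1, day 0 S and day 28 G1, the only groups with 2 libraries. In tests over all phases, the spread also held differences between phases in the day 28 change. Part of any such spread may be technical.

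The members are read-outs of the pathway from EGFR through RAS to the kinase ERK, and they are known as genes that ERK signalling switches on. Sprouty and SPRED proteins feed back on that pathway: Sprouty proteins interfere with signalling between receptors and RAF, and SPRED proteins bring the RAS inactivator neurofibromin to the membrane. ETV1, ETV4 and ETV5 are ETS transcription factors that carry the signal to further genes, and the repressor CIC, which ERK signalling disables, holds their genes down. PHLDA1 encodes a small pleckstrin-homology-like protein made in response to growth factors.

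Values are log2 of scaled reads in the coding span, from start to stop codon with introns included, so spliced and unspliced RNA are both counted. Reads per library were 8.83 to 108.7 M (M for mega), and day 0 G1 clone 7 was the shallowest. The reads over 413 olfactory receptor genes, which these cells should not use, were 0.00108 to 0.00454 per kb and M at day 0 and 0.00771 to 0.0259 at day 28. Mitochondrial genes took 6.07% to 10.7% of reads at day 0 and 8.61% to 21.6% at day 28, and genes with spans over 300 kb took 0.726% to 1.05% and 2.06% to 3.41%. Epithelial markers fitted the label, with 7 of 7 detected in every library at a summed 12089 to 29706 reads per M. Markers of leukocytes (0.148 to 2.21), fibroblasts (12.4 to 46.9) and endothelium (2.98 to 11.3 reads per M) were low. In bulk RNA, fewer cells with a transcript and less transcript per cell cannot be told apart.

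After 28 days of osimertinib, 5 of the 10 members were lower across the 3 phases: PHLDA1, ETV4, ETV5, SPRY1 and SPRY2. SPRED2 was higher, and SPRED1 and ETV1 did not pass the test. SPRY4 and SPRED3 had too few reads to enter it. Of the 8 members tested, 5 fell and 1 rose at an adjusted p under 0.05 (limma, Benjamini-Hochberg over 12391 genes), where 26.6% of all tested genes fell, 28.6% rose and 55.1% changed in either direction. As a description, the median log2 difference was -1.77 over the 8 members that passed the filter and 0.01 over all tested genes. The days did not overlap in the same 5 genes that fell, each lower in all 4 day 28 libraries than in all 5 day 0 libraries, as did 18.9% of all tested genes, with 20.9% higher in all 4 and 39.8% in either direction.

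**Figure D1:**
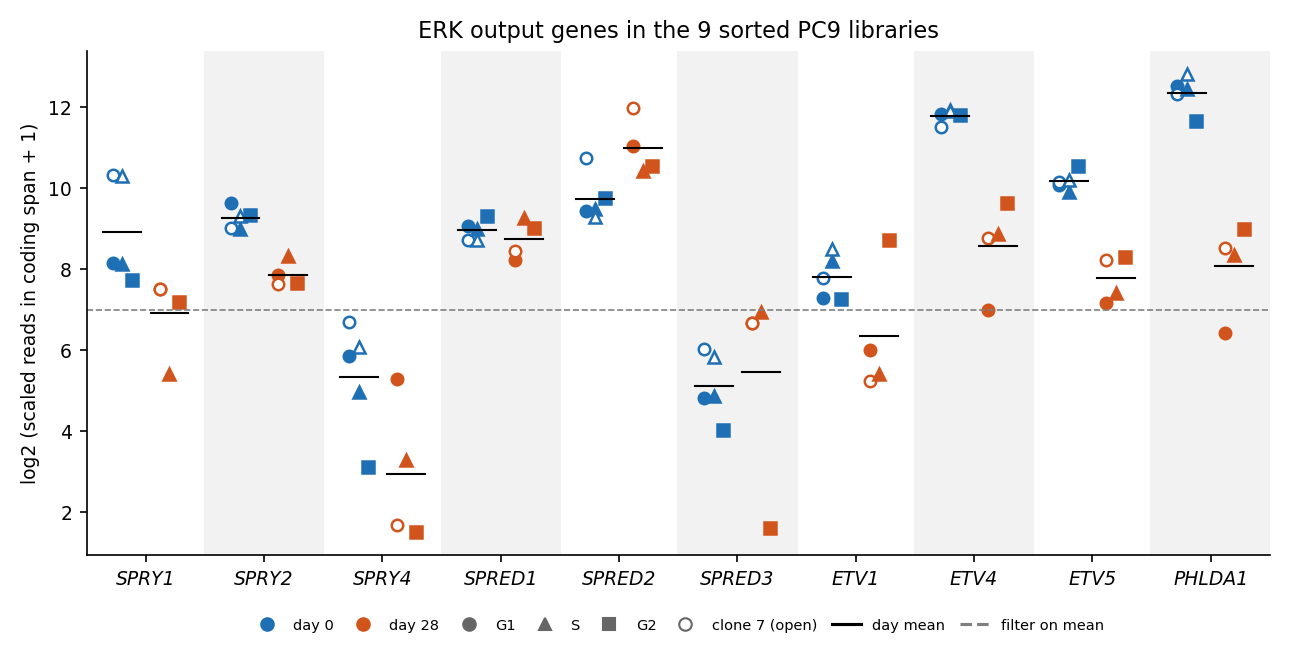
Log2 of scaled reads plus 1 in each of the 9 libraries for the 10 genes, with colour for the day, shape for the phase, open symbols for clone 7 and a black line for the mean of each day. Day 28 symbols of SPRY2, ETV4, ETV5 and PHLDA1 lie clear below those of day 0, and SPRED2 lies higher. All symbols of SPRY4 and SPRED3 lie under the dashed filter on the mean.

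SPRY2 encodes the Sprouty protein best known for restraint of receptor signalling. Its single coding exon (ENSG00000136158, chr13:80336758-80337705, minus strand, GRCh38) held log2 values of 9.63 and 9.01 in day 0 G1, 9.01 and 9.31 in day 0 S and 9.35 in day 0 G2 (clone 1 before clone 7 here and throughout). At day 28 the values were 7.85 and 7.63 in G1, 8.32 in S and 7.65 in G2. Every day 28 library was lower than every day 0 library, with S the highest of the 4. The difference was -1.38 ± 0.33 (SE; adjusted p = 0.00466, limma), a 2.60-fold lower value. With each library's trend of value against span taken out, it was -0.96 ± 0.31 (adjusted p = 0.0258).

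SPRY1, a second Sprouty gene (ENSG00000164056, chr4:123401592-123402551, plus strand, 1 coding exon), split by clone at day 0. Values were 8.16 (clone 1) and 10.33 (clone 7) in G1, 8.14 and 10.31 in S, and 7.74 in the clone 1 G2 library. At day 28 both G1 libraries were alike at 7.51 and 7.52, with 5.43 in S and 7.21 in G2. The clone 7 libraries were thus the highest at day 0 and no longer stood apart at day 28. The day 28 difference was -2.09 ± 0.66 (adjusted p = 0.0197, limma) and -1.83 ± 0.51 with clone as a block. It did not pass in clone 1 alone (-1.30, adjusted p = 0.0845), without day 0 G1 clone 7 (-1.76, 0.0524), without day 28 S (-1.33, 0.143), with voom, which weights each value by its read depth (-1.35, 0.108), or with the span trend removed (-1.67, 0.0595). Clone 7 against clone 1, over both days, gave 1.70 ± 0.58 (unadjusted p = 0.0143, limma; adjusted p = 0.198), and a clone difference that changes with the day was not tested.

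The low day 28 S value of SPRY1 rests on 19 reads. All 19 touched the first 105 coding bases and 0 lay in the other 855, whereas at day 0 those 855 bases held 279, 93, 128, 319 and 74 of 322, 100, 139, 362 and 83 reads. The stretch that held the 19 reads is shown because the value depends on it, with the start codon in capitals (GENCODE release 29, GRCh38, chr4:123401592-123401696, plus strand).
SPRY1: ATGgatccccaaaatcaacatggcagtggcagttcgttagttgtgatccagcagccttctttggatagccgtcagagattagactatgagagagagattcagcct
Day 28 G2 showed the reverse, with 0 reads in the 105 bases and 71 in the rest. Counts of this kind, made after PCR, carry counting error and more, and the Wilson intervals given below for shares of reads cover counting error only.

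SPRY4, the Sprouty gene often used as an ERK read-out (ENSG00000187678, chr5:142314209-142319765, minus strand), was scarce. Its span held 65, 8, 15, 19 and 3 reads in the day 0 libraries (G1 clone 1, G1 clone 7, S clone 1, S clone 7, G2) and 14, 0, 4 and 0 at day 28 (G1 clone 1, G1 clone 7, S, G2). Day 0 G2 and day 28 G1 clone 1 overlapped the other day. Without the filter the difference was -2.34 (adjusted p = 0.0393, limma over all 20442 genes). The last coding exon, 900 bases of chr5:142314209-142315108, held 49, 8, 11, 17 and 2 reads at day 0 and 0 in each of the 4 day 28 libraries. Set against a floor of 3 counts over those 4 libraries together, reads per M were at least 17.9-fold lower there. The 14 and 4 reads left at day 28 all lay in the other 4657 bases, 15.4% of which are exonic, where day 0 held 16, 0, 4, 2 and 1. This exon was singled out after its values were seen.

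SPRED1, which encodes a neurofibromin partner (ENSG00000166068, chr15:38253186-38351664, plus strand), stayed within its day 0 range or near it. The values were 9.08, 8.73, 8.998, 8.72 and 9.32 at day 0 and 8.23, 8.45, 9.27 and 9.02 at day 28. G1 libraries were below all day 0 values and the S and G2 libraries were among them. The difference was -0.21 ± 0.31 (adjusted p = 0.597, limma; 95% interval -0.90 to 0.48), which does not show that the level was unaltered. With the span trend removed it was -0.81 ± 0.32 (adjusted p = 0.0561, limma), lower but not passing.

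SPRED2 (ENSG00000198369, chr2:65313501-65431987, minus strand) was the only tested member with a higher value. Log2 values were 9.45, 10.74, 9.50, 9.28 and 9.76 at day 0 and 11.05, 12.00, 10.43 and 10.55 at day 28. Day 0 G1 clone 7 overlapped the day 28 S and G2 libraries. The difference was 1.16 ± 0.32 (adjusted p = 0.00972, limma). With the span trend removed it was 0.43 ± 0.29 (adjusted p = 0.243). The span is 118 kb, and 43.4% of genes with spans of 60 to 150 kb rose.

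**Figure D2:**
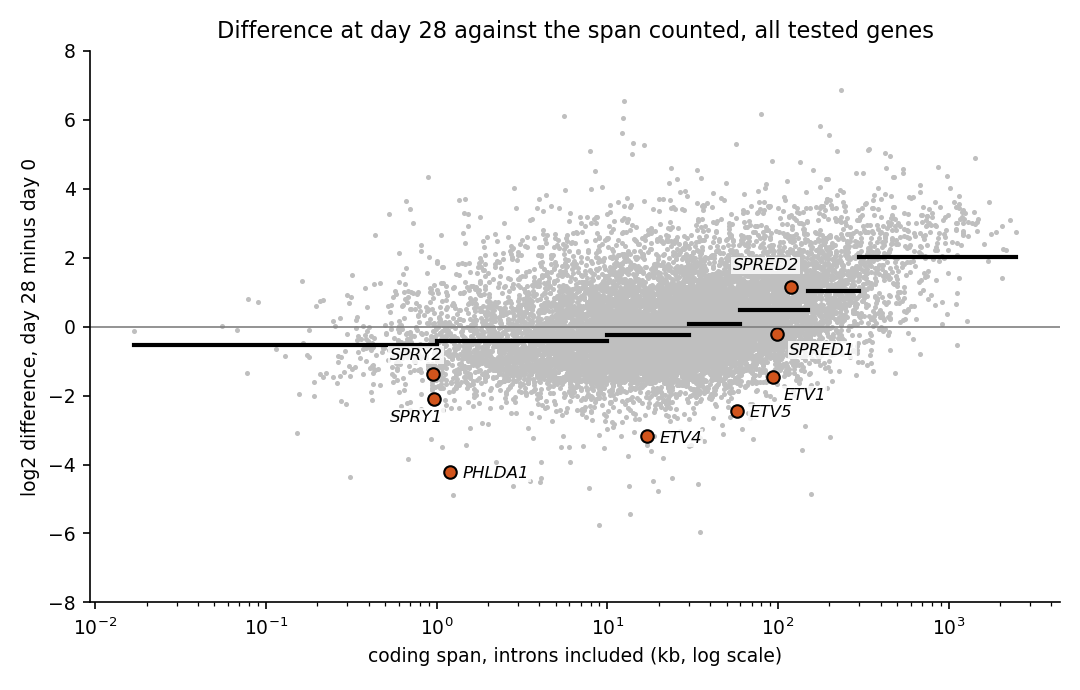
Log2 difference, day 28 minus day 0, against the length of the coding span with introns (kb, log scale) for all tested genes in grey and the 8 tested members in orange, with black bars for the medians of span classes. The class medians run from -0.52 up to 1 kb to 2.01 above 300 kb, and SPRED2 (1.16) lies above the 0.49 of its class while PHLDA1, ETV4 and ETV5 lie below theirs by over 2 log2 units.

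Reads of SPRED2 were not spread alike along the gene on both days. The first 65.4 kb of the span (chr2:65366607-65431987) is intron 1 with alternative first exons, 0.47% exonic, and holds the non-coding gene AC012370.1 on the same strand. It had 208, 98, 102, 84 and 136 reads at day 0 and 663, 1419, 453 and 538 at day 28. The remaining 53.1 kb, with all the other coding exons, had 579, 35, 256, 94 and 203 reads at day 0 and 111, 235, 170 and 185 at day 28. The first stretch differed by 2.11 ± 0.50 (adjusted p = 0.00424) and the remainder by -0.23 ± 0.33 (adjusted p = 0.572), both from limma with these stretches added to the genes. The first stretch passed as higher, and the remainder, which holds most of the exons, did not pass in either direction.

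The share of SPRED2 reads in that first stretch was 26.4%, 73.7%, 28.5%, 47.2% and 40.1% at day 0 and 85.7%, 85.8%, 72.7% and 74.4% at day 28. Day 0 G1 clone 7, with 133 reads (95% Wilson interval 65.6% to 80.4%), reached the day 28 range, and the other day 0 libraries did not. The log2 ratio of the first stretch to the remainder was 2.44 higher at day 28 (exact permutation test over 9 libraries, two-sided p = 0.0317, smallest possible 0.0159). Without day 0 G1 clone 7 it was 2.91 higher (exact permutation p = 0.0286, the smallest possible). Leaving out any other library gave 2.17 to 2.65, with exact p of 0.0357 without day 28 S and 0.0571 or 0.0714 without each of the rest. A split of this kind could be made in 1602 genes, of which 1032 (64.4%) had the larger difference in the first stretch. The median gap over the 1602 was 0.47, and 162 of them, SPRED2 included, had a gap of at least the 2.31 that SPRED2 showed with the boundary used there. The split was chosen after the values were seen.

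**Figure D3:**
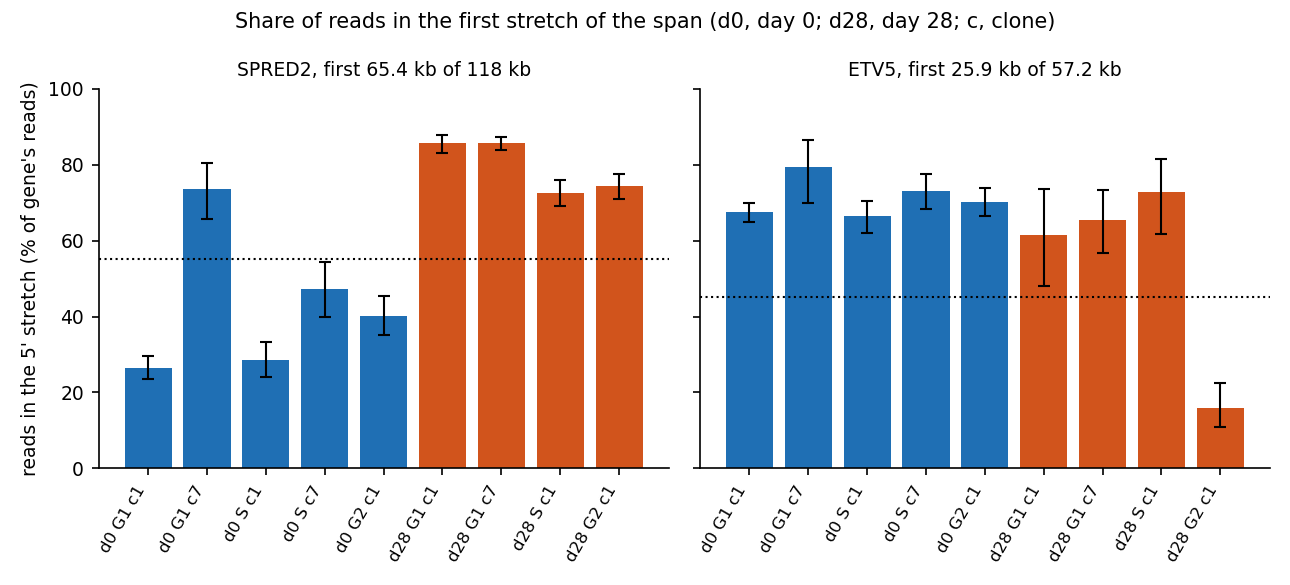
Percent of a gene's reads in the first stretch of its coding span in each library (d0 and d28 for the days, c for the clone), with 95% Wilson intervals and a dotted line at that stretch's share of the span length. SPRED2 shares are 72.7% or more at day 28 and mostly under 50% at day 0, while ETV5 shares are alike except for 15.8% in day 28 G2.

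SPRED3 (ENSG00000188766, chr19:38388499-38396145, plus strand), the least abundant SPRED gene, had 31, 5, 14, 16 and 6 reads at day 0. At day 28 it had 37, 41 and 55 reads in the G1 and S libraries and 1 in G2. The log2 values were 4.83, 6.03, 4.87, 5.83 and 4.03 at day 0 and 6.68, 6.68, 6.94 and 1.62 at day 28. G1 and S at day 28 were higher than every day 0 library and G2 was lower than all. The untested difference was 0.51.

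The PEA3 genes are close relatives, and the stretch they share most closely was compared to see whether 75 bp reads could be assigned to the wrong one. The longest exact run common to any pair of member coding sequences was 33 bases, in ETV4 and ETV5, and the next was 20 bases, in SPRY1 and SPRY4. The run lies in the part that encodes the ETS DNA-binding domain. The 89 bases of spliced coding sequence around it are shown for the 3 genes (GENCODE release 29, GRCh38, all minus strand, ends at chr17:43529165-43529520 for ETV4, chr3:186052060-186057091 for ETV5 and chr7:13900768-13906446 for ETV1, each across an intron). Capitals mark the 33 shared bases in ETV4 and ETV5, and bases equal to ETV4 in ETV1.
ETV4: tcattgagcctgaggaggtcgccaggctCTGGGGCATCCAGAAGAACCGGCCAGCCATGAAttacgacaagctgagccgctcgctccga
ETV5: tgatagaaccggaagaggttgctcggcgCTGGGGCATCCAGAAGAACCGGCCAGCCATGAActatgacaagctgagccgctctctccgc
ETV1: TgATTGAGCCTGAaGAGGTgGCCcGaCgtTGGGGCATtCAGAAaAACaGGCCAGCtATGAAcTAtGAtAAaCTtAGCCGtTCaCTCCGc
ETV5 matched ETV4 at 76 of the 89 bases and ETV1 matched it at 70, so no 75-base read fits a pair of them exactly within the coding sequence.

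ETV4 was the most abundant PEA3 gene at day 0 and was lower in each phase at day 28 (ENSG00000175832, chr17:43528519-43545617, minus strand). The values were 11.83, 11.51, 11.93, 11.91 and 11.81 at day 0, within 0.42 of each other, and 6.99, 8.78, 8.88 and 9.63 at day 28. The lowest was G1 clone 1 and the highest G2. The difference was -3.18 ± 0.38 (adjusted p = 9.79e-05, limma), a 9.08-fold lower value.

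The last 1643 bases of ETV4 and the remainder of its span fell by like amounts, while 2 short stretches near the start held no day 28 reads. The last 1643 bases held 2451, 174, 1046, 650 and 802 reads at day 0 and 27, 146, 105 and 251 at day 28 (-3.18 ± 0.45, adjusted p = 2.37e-04, limma), and the remainder of the span fell by 3.25 ± 0.38 (9.02e-05). A 335-base stretch near the start (chr17:43544976-43545310) held 206, 15, 118, 66 and 69 reads at day 0 and 0 in all 4 day 28 libraries. Against 3 counts over those 4 libraries, it was at least 97.7-fold lower. The first 307 bases, all exonic, held 82, 5, 45, 18 and 35 reads at day 0 and also 0 at day 28, at least 38.1-fold lower. Both stretches were picked after their values were seen. DHX8 lies on the opposite strand. The library kit keeps the strands apart, but whether reads were counted by strand is not given.

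ETV5 (ENSG00000244405, chr3:186048639-186105868, minus strand) was lower by a like amount in G1 (-2.42), S (-2.64) and G2 (-2.25). Values were 10.09, 10.15, 9.91, 10.20 and 10.55 at day 0 and 7.16, 8.24, 7.42 and 8.30 at day 28. The day 0 libraries lay within 0.64 of each other and the highest day 28 value was 1.61 below the lowest of them. The difference was -2.45 ± 0.31 (adjusted p = 1.42e-04, limma), a 5.45-fold lower value.

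The first 25.9 kb of ETV5 fell by 3.01 ± 0.43 (adjusted p = 2.43e-04, limma) and the other 31.4 kb by 1.90 ± 0.47 (0.00562). The first stretch held 67.5%, 79.5%, 66.5%, 73.2% and 70.3% of its reads at day 0 and 61.5%, 65.6%, 72.7% and 15.8% at day 28. Day 28 G2 was the exception, with 24 of 152 reads (95% Wilson interval 10.9% to 22.4%). That library also had the highest olfactory receptor density, 0.0259 per kb and M. In it the first stretch of ETV5 held 0.0216 reads per kb and M and the other stretch 0.0947. Whether background reads bear on this share was not tested. The span of ETV5 overlaps DGKG and RF00017 on the same strand and ETV5-AS1 on the opposite strand, and their part in these reads was not tested. The log2 ratio of both stretches differed between days by -1.19 (exact permutation p = 0.127), and by -0.34 without day 28 G2 (0.286).

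ETV1 (ENSG00000006468, chr7:13895866-13989052, minus strand) was scarce and differed between phases of day 28. The values were 7.29, 7.78, 8.22, 8.51 and 7.27 at day 0, with 5.9997 and 5.25 in day 28 G1, 5.43 in S and 8.72 in G2. The G1 and S libraries were below every day 0 library and the G2 library was above them all. Over all phases the difference was -1.45 ± 0.66 (adjusted p = 0.0831, limma; 95% interval -2.91 to 0.00). In G1 alone it was -1.91 ± 0.63 (0.0463), and in S it was -2.94 ± 0.77 (0.0592; 0.0466 with clone as a block).

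Per kb of span and M reads, ETV1 stood at 0.0146 to 0.0369 at day 0 and at 0.0081, 0.0048 and 0.0050 in day 28 G1 and S. The olfactory receptor density of those 3 libraries was 0.0079, 0.0077 and 0.0120, so their ETV1 reads were near or below it. Day 28 G2 held 203 reads, 0.0506 per kb and M against an olfactory density of 0.0259. None of those reads lay in the first 894 bases, which held 32, 0, 14, 12 and 0 reads at day 0 and 0 in every day 28 library, at least 12.0-fold lower against 3 counts over 4 libraries. After subtraction of the olfactory density the ETV1 difference over all phases was -4.44 (adjusted p = 0.00607, limma). The subtraction set the 3 day 28 G1 and S libraries to the value that stands for no read. Both the size and the p of this difference depend on that value. What the day 28 G2 reads come from was not tested.

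PHLDA1 fell most of the members (ENSG00000139289, chr12:76030536-76031741, minus strand, 1 coding exon). The values were 12.53, 12.32, 12.45, 12.83 and 11.65 at day 0 and 6.42, 8.54, 8.35 and 8.99 at day 28. G2 was the lowest library at day 0 and the highest at day 28, and G1 clone 1 was the lowest of all. The difference was -4.22 ± 0.45 (adjusted p = 5.84e-05, limma), an 18.6-fold lower value, from 6648, 398, 2783, 2084 and 1256 reads to 31, 150, 147 and 245. The last 783 bases of the coding sequence alone gave -4.24 ± 0.50. The 423 bases at the start of the coding sequence held 445, 12, 185, 119 and 63 reads at day 0 and 7, 8, 0 and 0 at day 28.

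Levels of different genes were compared per kb of coding sequence and M reads, a scale that counts intronic reads of multi-exon genes too. At day 0 PHLDA1 led with 43.5 ± 13.2 (SD, n = 5), followed by ETV4 with 23.7 ± 4.06. ETV5 (6.78 ± 0.80), SPRY1 (6.47 ± 5.19), SPRY2 (6.31 ± 1.45) and SPRED2 (5.86 ± 2.46) came next and did not differ beyond their spread. SPRED1 (3.64 ± 0.69), ETV1 (1.39 ± 0.56), SPRY4 (0.52 ± 0.33) and SPRED3 (0.23 ± 0.11) followed. At day 28 SPRED2 was first with 18.0 ± 10.6 (SD, n = 4), a rank that rests on its first-intron reads. Counted outside the first intron, per kb of the coding sequence there, SPRED2 stood at 3.26 ± 0.70 at day 0 and 3.47 ± 1.10 at day 28, among the next 4 genes. SPRED1 (3.82 ± 1.11), ETV4 (3.60 ± 2.08), PHLDA1 (3.06 ± 1.64) and SPRY2 (2.88 ± 0.60) came next with overlapping spreads, above SPRY1 (1.69 ± 0.85), ETV5 (1.63 ± 0.63), ETV1 (0.97 ± 1.27), SPRED3 (0.60 ± 0.39) and SPRY4 (0.14 ± 0.23). PHLDA1 and ETV4 no longer led at day 28.

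Taken phase by phase, 6 members had a lower mean at day 28 in G1, S and G2 alike: SPRY1, SPRY2, SPRY4, ETV4, ETV5 and PHLDA1. SPRY4 was below the filter, and the share of all genes lower in all the phases was not counted. In G1, with 2 libraries a day, 5 of 8 tested members fell (SPRY2, ETV1, ETV4, ETV5 and PHLDA1) and 0 rose, where 19.1% of tested genes fell, 19.8% rose and 39% changed. The G1 difference was -4.94 ± 0.62 for PHLDA1 (adjusted p = 0.00304), -3.79 ± 0.55 for ETV4 (0.00390), -2.42 ± 0.46 for ETV5 (0.00798) and -1.58 ± 0.45 for SPRY2 (0.0280, limma). SPRED2 in G1 was 1.43 ± 0.51 (0.0582) and passed with clone as a block (0.0290). ETV4, ETV5 and PHLDA1 passed in G1 with each library left out in turn, and SPRY2 and ETV1 did not pass in several of these fits, so the count ran from 3 to 5. It was 3 without day 0 G1 clone 1, day 0 S clone 1, day 0 S clone 7, day 28 G1 clone 1 or day 28 G1 clone 7.

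In S, with 1 library at day 28, ETV4 (-3.04 ± 0.67, adjusted p = 0.0441), ETV5 (-2.64 ± 0.57, 0.0427) and PHLDA1 (-4.29 ± 0.76, 0.0332) fell, where 2.9% of tested genes fell, 4.37% rose and 7.27% changed (limma, the lone library assumed to vary like the other groups). With clone as a block 1935 genes in place of 901 passed, and ETV1 joined the 3 members. The count of members moved when 1 G1 or day 0 S library was left out, and the count of all genes that passed moved with it. Such a fit leaves 1 library in that group, and none of the 3 calls held in all of these fits. In G2, with 1 library a day and so no test, the differences were -2.67 for PHLDA1, -2.25 for ETV5, -2.17 for ETV4, -1.69 for SPRY2, -1.60 for SPRY4 and -0.53 for SPRY1. ETV1 (1.44) and SPRED2 (0.78) were higher in G2, and SPRED3 was lower (-2.42).

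**Figure D4:**
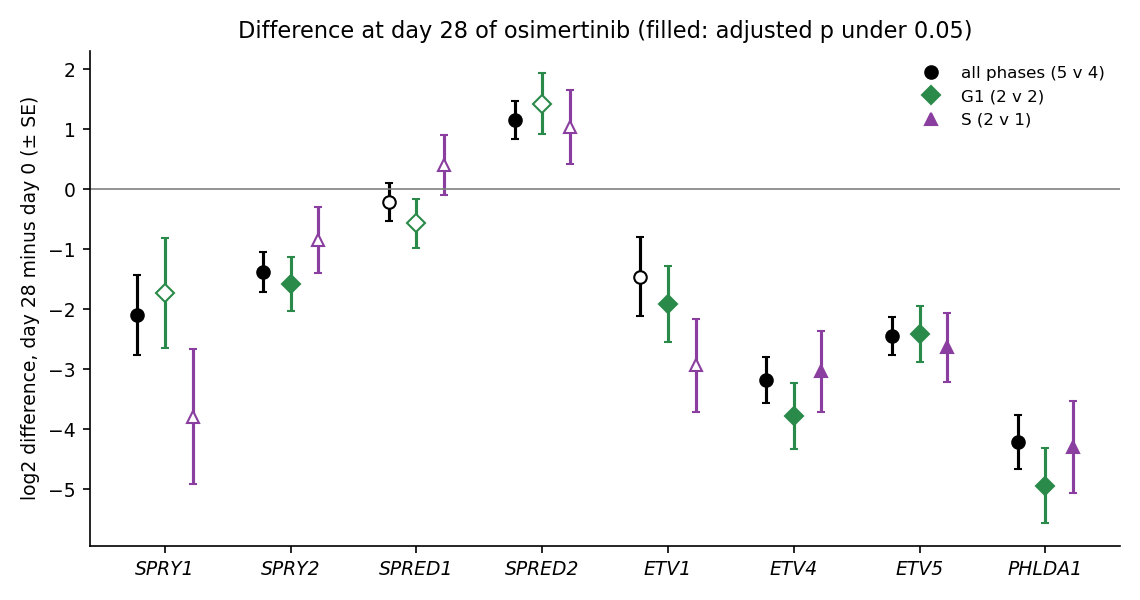
Log2 difference, day 28 minus day 0, with its SE for the 8 tested members over all phases, in G1 and in S, filled where the adjusted p was under 0.05. PHLDA1, ETV4 and ETV5 are filled in all 3 comparisons, and SPRED1 in none.

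A term for the difference between cycling (S and G2) and G1 cells in their day 28 change passed for 0 of 8 members and for 0% of 12391 genes (limma), with 1382 genes (11.2%) and 0 members at an unadjusted p under 0.05. Voom also called 0. The largest member terms were 1.35 ± 0.86 for PHLDA1 and 1.12 ± 0.71 for ETV4, the fall being smaller in cycling cells. With clone 1 alone these terms were 2.72 and 2.23, from 1 library for each day and phase. In day 28 G1, clone 1 was lower than clone 7 for both genes (6.42 and 8.54 for PHLDA1, 6.99 and 8.78 for ETV4). S against G1 at day 0 gave 0 of 8 members and 0% of genes, with 443 genes and 0 members at an unadjusted p under 0.05 and 0 called by voom. S and G2 against G1 at day 28 gave 0 of 8 members where 4.75% of genes passed (2.9% higher, 1.85% lower), and 0 by voom. ETV4 alone had an unadjusted p under 0.05 (1.37 ± 0.55, adjusted p = 0.175, limma). The summed level of 6 G2 and M markers went from 300.1 and 800.0 reads per M in day 0 G1 to 4458 in G2, and from 115.2 and 72.7 to 4325 at day 28. Clone 7 against clone 1 gave 0 of 8 members where 0.613% of genes passed, with SPRY1 alone at an unadjusted p under 0.05, and 0 by voom.

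Other genes that ERK signalling is known to induce moved in both directions. The counts of this and the following lists stand beside 28.6% of all tested genes that rose and 26.6% that fell, or 21.7% and 27.5% with the span trend removed, and no list was tested as a group. Of 5 further genes of the published MAPK activity score, 3 fell and 1 rose. DUSP6, the ERK phosphatase, had values of 10.70, 11.74, 9.95, 11.66 and 9.48 at day 0 and 6.64, 4.54, 6.21 and 6.84 at day 28 (-4.62 ± 0.62, adjusted p = 1.76e-04, limma). DUSP4, a nuclear ERK phosphatase, fell by 3.77 ± 0.49, and the ephrin receptor gene EPHA4 rose by 3.45 ± 0.34. Of 16 tested among 20 other induced genes, 8 fell and 3 rose (6 and 3 with the span trend removed), among them HBEGF, an EGFR ligand (-2.45 ± 0.66), FOSL1, an AP-1 subunit (-2.34 ± 0.61), and the cytokine gene IL6 (2.54 ± 0.44). HBEGF at day 0 split by clone as SPRY1 did, with 8.73, 8.38 and 7.90 in clone 1 and 10.88 and 11.40 in clone 7. In 8 tested genes of other receptor feedback, 2 rose and 3 fell, with IL17RD, a Sprouty-like inhibitor also called SEF, at 1.54 ± 0.51, SOCS4 at -1.53 ± 0.55 and SPSB1 at -1.21 ± 0.40. With the span trend removed 1 rose and 2 fell, and IL17RD (1.16, adjusted p = 0.0773) and SOCS4 (-1.14, adjusted p = 0.0942, limma) no longer passed.

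In the relay from RAS to ERK itself, 7 of 23 genes rose, 4 fell and 12 did not pass, with a median of 0.22. The share that rose was near that of all tested genes. The scaffold gene KSR1 (2.72 ± 0.23), the RAS activator SOS2 (2.05 ± 0.28) and BRAF (1.75 ± 0.27) changed most. Their spans are 167, 113 and 198 kb, and with the span trend removed their differences were 1.73, 1.35 and 0.63, each still passing, while 4 genes of the list rose in place of 7 and 5 fell in place of 4. Among 12 partners of Sprouty and SPRED proteins 4 rose and 2 fell, counts that were the same with the span trend removed, although TESK1 then rose and NEDD4 did not pass. The largest were CBLB, a ubiquitin ligase gene (2.30 ± 0.29), the kinase gene DYRK1A (2.28 ± 0.31) and the ubiquitin ligase gene NEDD4 (1.77 ± 0.32), which were 1.15, 1.72 and 0.81 with the span trend removed, the last no longer passing (adjusted p = 0.0690, limma).

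Around the PEA3 genes, 0 of 7 tested genes for regulators of CIC or of PEA3 protein turnover rose and 3 fell: TRIB2 (-2.32 ± 0.33), DDB1 (-1.02 ± 0.20) and TRIB1 (-0.99 ± 0.28), of which the Tribbles proteins act through the COP1 ubiquitin ligase. COP1, with a span of 262 kb, was at 0.02 ± 0.22 (adjusted p = 0.958), and with the span trend removed it was the fourth gene of the list to fall (-1.30, adjusted p = 3.06e-04, limma). Of 16 tested genes for other ETS factors 1 rose and 3 fell, led by ELK1 (-1.72 ± 0.47), ETV6 (1.54 ± 0.34, or 0.28 with the span trend removed) and ELK4 (-1.29 ± 0.47, or -1.09 with the span trend removed, adjusted p = 0.0682, limma). With that trend removed 0 of the 16 rose and 3 fell, ELF2 in place of ELK4. Only 3 of 10 listed PEA3 target genes could be tested: the protease genes PLAU (-2.44 ± 0.23) and MMP14 (2.41 ± 0.45) went opposite ways, and the mucin gene MUC4 did not pass (0.67 ± 0.62). Of the other PHLDA genes, PHLDA2 fell by 2.40 ± 0.49 and PHLDA3 did not pass (-0.37 ± 0.28).

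Each tested member was set against all other tested genes by Pearson correlation of the log2 values over the 9 libraries, as a description in which the day separates the libraries. The nearest were RIN1 (0.982) and GSDMC (0.972) for SPRY1, GNPNAT1 (0.986) and ORAI1 (0.985) for SPRY2, KATNAL1 (0.963) and ERP29 (0.945) for SPRED1, and MB21D2 (0.983) and BTRC (0.975) for SPRED2. For the PEA3 genes they were NBL1 (0.942) and AOX1 (0.936) for ETV1, EXOSC3 (0.992) and PHB1 (0.989) for ETV4, and UBASH3B (0.996) and SARS1 (0.994) for ETV5. HOMER3 (0.993) and ENSG00000268193 (0.992) were nearest to PHLDA1. None of the 16 is another member.

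The DNA before the start sites was searched for motifs of CIC, ETS and AP-1 factors and for other promoter sequences. The search covered the 250 bases upstream of each RefSeq start (GRCh38.p14, both strands) of the 8 members listed there, all except ETV4 and ETV5. The CIC octamers TGAATGAA, TGAATGGA, TCAATGAA and TCAATGGA were found for 2 of the 8, ETV1 and SPRED3, and in 3.18% of 35116 windows of all genes. The ETS sequence CCGGAAG was found for 1 member (8.52% of windows), the AP-1 sequence TGANTCA for 1 (6.57%) and TGACG for 3 (21.2%). The GC box GGGCGG was found for 7 (42.6%), TATAAA for 1 (10.7%) and the CArG box for 0 (1.16%). Members have up to 6 windows each, so counts of members and shares of windows are not on the same footing. By window, CIC octamers were in 2 of 18 member windows, CCGGAAG in 1, TGANTCA in 1 and TGACG in 5. GC boxes are left in small letters in the windows shown. One ETV1 window and one SPRY2 window are shown, chosen because neither overlaps an exon of its gene in GENCODE and each holds a match, in capitals: TGAATGGA at 125 bases before the start in ETV1 (chr7:13991426-13991675, minus strand) and TGACG at 190 bases before it in SPRY2 (chr13:80341127-80341376, minus strand).
ETV1: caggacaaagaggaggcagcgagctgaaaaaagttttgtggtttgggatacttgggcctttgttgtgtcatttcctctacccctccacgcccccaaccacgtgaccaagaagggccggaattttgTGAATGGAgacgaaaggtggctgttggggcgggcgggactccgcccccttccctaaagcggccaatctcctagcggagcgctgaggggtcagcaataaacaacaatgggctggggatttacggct
SPRY2: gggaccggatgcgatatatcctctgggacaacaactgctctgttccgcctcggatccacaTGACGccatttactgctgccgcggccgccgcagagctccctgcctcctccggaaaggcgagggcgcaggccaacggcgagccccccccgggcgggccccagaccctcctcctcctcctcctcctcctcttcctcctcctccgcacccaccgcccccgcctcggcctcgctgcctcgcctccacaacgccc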

How the data were processed

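The authors deposited log2 values for 80037 coding transcripts, aligned to GRCh38 with HISAT2 2.1.0 per the submitters' processing notes. The counter and scaling are not given in the sources used here. The values step in whole reads scaled by a library's own factor (0.9 stands for no read): up to 1000 reads, 100% came within 0.05 of a whole number. Recovered reads average 43.0 M, where the labels state 24 M, and the labels do not explain it. Of 65954 rows named in GENCODE 29, 90.6% had the same coding span.

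Values were made linear, 1 was added and log2 taken again, so folds are on that scale. Genes with a mean of at least 7.01 (10 reads in the shallowest library) were tested: 12391 of 20442. limma 3.58.1 (R 4.3.3, trend, threshold 0.05) used day and phase, clone, day and phase, or 6 group means. On simulated data for day 28 over all phases, it recovered 18 of 66, 52 of 67 and 63 of 67 genes changed by 1, 2 and 3 on the log2 scale, with 4 false calls among 12391 genes. Far fewer genes were changed there than passed in the data. The simulation also held no clone, phase or span effect, so these rates may not carry over to the data. Clone 7 minus clone 1 differences correlated at 0.653 for day 0 G1 with day 0 S. They correlated at 0.115 for day 0 G1 with day 28 G1 and at 0.296 for day 0 S with day 28 G1. All 3 were above 0.1, but pairing across days was weak. The main day fits left clone out, and an alternative added it as a block.

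Named were all members, up to 3 tested genes per list with the largest difference, and the 2 genes most alike. Members and lists were chosen with earlier results of these data known. Stretches within genes, HBEGF's split by clone and the shown windows were picked after values were seen. The alternatives were scalings, filters, pseudocounts, clone block, clone 1 alone, widest span, voom, span trend, background and leaving out libraries.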

Additional observations from a re-analysis of the deposited data

Results flagged for a closer look

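In 20 sets of library values (10 genes on each day, with 5 and 4 libraries), 2 had a library apart from the others by Dixon's criterion, and chance flags about 1 in 20. SPRED3 in day 28 G2 had a log2 value of 1.62 (1 read), against 6.68 to 6.94 in the other day 28 libraries. SPRY1 in day 28 S had 5.43 (19 reads), against 7.21 to 7.52.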

How the results depend on the processing

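Of 1105 member values under the alternatives other than the SPRED2 split given next, 1050 kept their side of the threshold, 31 no longer passed and 24 newly passed. Direction was compared only where the main fit or the alternative passed, and 0 of those values reversed. Of 138 member counts, 14 moved by over 1.5 times. Leaving out 1 library gave 5 to 7 members over all phases (6 with all), 3 to 5 in G1 (5) and 0 to 5 in S (3). In S the count was 5 with quantile scaling and 5 without a filter. The count for the day-by-phase term also moved with clone 1 alone, a fit with 1 library for each day and phase. Why these counts moved was not tested, beyond the fewer libraries or other genes in those fits.

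Counted outside its first intron, a choice made after seeing the data, SPRED2 over all phases was -0.23 (adjusted p = 0.572, limma). Quantile scaling moved the median of all genes to -0.14 and voom to 0.28, from 0.01. ETV1 over all phases passed with quantile scaling (-2.64, 0.0110), the span trend removed (-2.02, 0.0256) and without day 0 G2 (-2.32, 0.00655). Clone as a replicate block added SPRED2 in G1 (1.43, adjusted p = 0.0290) and ETV1 in S (-2.93, 0.0466), and changed no other member's call. Counts of all genes moved by over 1.5 times in S (901; 2573 unfiltered, 1935 blocked, 2038 by voom, 546 with background subtracted, 0 to 1699 with 1 library left out), for S and G2 against G1 at day 28 (588; 1563 with quantile scaling, 1156 unfiltered, 1414 by voom, 46 to 762 with 1 library left out), between clones (76; 19 with quantile scaling, 163 unfiltered, 129 by voom, 32 with background subtracted, 9 to 341 with 1 left out), for the day-by-phase term (0; 154 with clone 1 alone, up to 56 with 1 left out), for S against G1 at day 0 (0; 2 unfiltered) and in G1 (4831; down to 2507 with 1 left out). Clone 1 alone could not be run with group means. Depth limits SPRY4, SPRED3 and ETV1, with 0 to 65, 1 to 55 and 15 to 203 reads.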
